A study of Xenopus laevis with 16 samples.

Results

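The ventral BMP-response genes described here are the array probes of Xenopus laevis named xom-A or LOC398164, together with any probe whose name in the scanner files contains vent, xvex or msx. The rule found 4 probes of 21495, namely xom-A, LOC398164, Xvex-1 and msx2-A, and all 4 were well above background in the sample channel on at least 2 arrays. Bone morphogenetic proteins (BMPs) signal through receptor kinases and Smad proteins, and in the frog blastula and gastrula this signal is high on the ventral side and is held down dorsally by antagonists from the organizer, such as Chordin and Noggin. The Vent, Vex and Msx homeodomain proteins are transcribed in response to BMP and repress organizer genes in ventral cells, while Sizzled is a secreted, Frizzled-related product of the same response that inhibits the proteases which cleave Chordin. The question followed here is how the RNA of these genes varied with tissue, with stage and with depletion of POUV proteins, the frog counterparts of mammalian Oct4.

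Embryos had received a morpholino at the 2-cell stage, 60 ng per blastomere, either a control oligonucleotide or PVD2, a mixture against the POUV genes Xlpou25, Xlpou60 and Xlpou91. RNA came from pools of 3 whole embryos or 25 animal caps, the ectoderm cut from the blastula at stage 8, and was collected at stage 9 (late blastula) or stage 10 (early gastrula). The 8 groups were thus control and PVD2 whole embryos at stage 9, the same at stage 10, control and PVD2 caps at stage 9 and the same at stage 10, each with 2 biological replicates, and all of the animals had been injected. Each sample, labeled with Cy3, was hybridized with a Cy5-labeled common reference, RNA pooled from whole embryos of 11 stages between 2 and 20, so that a value is a log2 ratio of sample over reference and the levels of different probes cannot be set against each other. Because whole pieces of tissue were measured, fewer cells that express a gene and less RNA per cell cannot be told apart.

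Scanner output was used for 15 arrays, and PVD2 caps at stage 10 had 1 array in every fit, assumed to vary like the other groups. Between 49.6% and 63.2% of the probes of an array were well above background in Cy3. Each of the 4 slides carried a single tissue under a single replicate number, and whole embryos and caps were scanned on different days, so that tissue, slide and scan day cannot be told apart. Within a slide a PVD2 array could be set against its control, which gave 7 pairs of PVD2 and control, 4 control pairs of stage 10 and stage 9, and 3 such PVD2 pairs. A morpholino need not lower its target's transcript, so the arrays hold no check of the depletion itself.

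In the current annotation (Xenopus_laevis_v10.1) xom-A is ventx2.2.L, a Vent-2 homeodomain repressor that directly answers BMP signaling, and it lies on chromosome 7L. LOC398164 is szl.L, one of the sizzled genes, on chromosome 3L. Xvex-1 is ventx3.2.S, a Vent-related homeodomain repressor on chromosome 7S. The name msx2-A matches msx2, a homeodomain repressor of the Msx family with a copy on 3L and another on 3S. The annotation holds 10 ventx genes in 1 cluster of 5 on chromosome 7L and 1 cluster of 5 on chromosome 7S, with 0 other genes between them on 7L and 1 on 7S.

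By annotation rather than by name, 4 further probes belong to the same families and were read beside the members: PV.1 (ventx1.1, a Vent-1 type repressor), szl (sizzled, from either copy), Xbr-1b (ventx2.1.S) and LOC397948 (ventx2.1.L), the last pair being further Vent-2 genes. All 4 were well above background on all 15 arrays. They were added after the probe names had been seen. The sequences of the probes were not used here, so cross-hybridization between the near-identical vent copies, or between the copies of sizzled, was not tested, and a value may combine several of them.

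xom-A was below its control in every same-slide pair of PVD2 and control arrays, although the mean difference did not pass the test. Its log2 ratios in whole embryos at stage 9 were −1.02 and −0.88 on the control arrays and −1.39 and −2.03 on the PVD2 arrays. At stage 10 they were 0.59 and 1.42 in control embryos and 0.30 and 0.68 in PVD2 embryos. In this gene the groups were separate at stage 9 and overlapped at stage 10. The share of all probes with separate groups was not counted, here or for the other members. In caps the controls measured −1.74 and −1.38 at stage 9, where the PVD2 arrays measured −1.98 and −2.45. At stage 10 the control caps gave 0.27 and −0.16, with −0.17 on the 1 PVD2 array, only just below the lower control. The 4 PVD2 minus control differences averaged −0.54 (SE 0.17, limma adjusted p = 0.683), with a 95% interval from −0.93 to −0.14 before adjustment over all probes. xom-A was lower in 7 of 7 pairs, by 0.24 to 1.15 on the log2 scale, as were 2.18% of all probes tested.

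**Figure D1:**
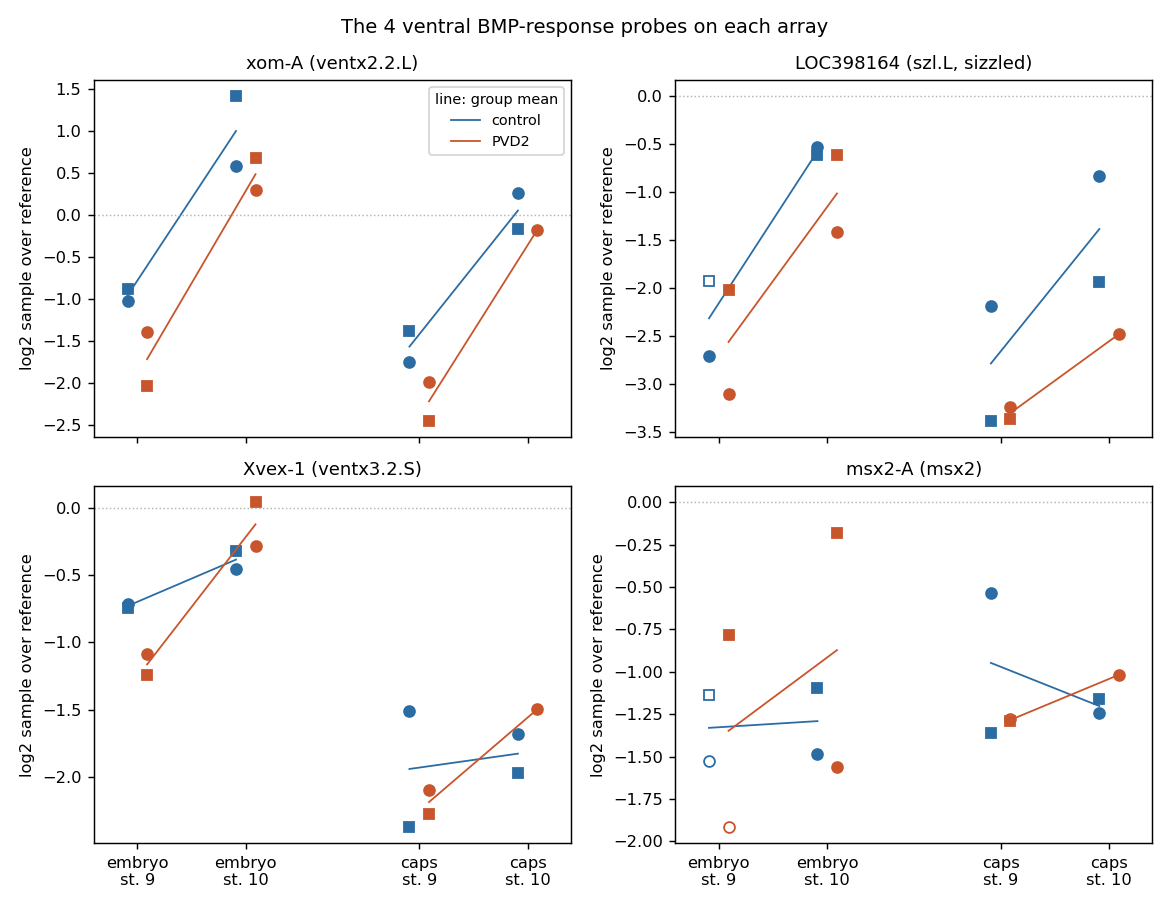
Log2 ratio of sample over reference (y axis) of the 4 member probes in whole embryos and caps at stages 9 and 10 (x axis), control in blue and PVD2 in orange. Circles are replicate 1, squares replicate 2, open symbols arrays on which the probe was not well above background, and lines join group means; xom-A rises from stage 9 to stage 10 in both tissues and under both morpholinos, while the msx2-A groups overlap in most positions.

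LOC398164, the sizzled probe, had replicates far apart, and PVD2 and control overlapped in all groups but caps at stage 10. In embryos at stage 9 it measured −2.71 and −1.92 in controls, the second of these not well above background, and −3.11 and −2.02 in PVD2. At stage 10 the control embryos gave −0.53 and −0.62 and the PVD2 embryos −1.42 and −0.61. One PVD2 embryo array of stage 10 thus lay level with the controls and the other below them. In caps at stage 9 the values were −2.19 and −3.38 in controls and −3.24 and −3.37 in PVD2. At stage 10 both control caps, at −0.83 and −1.94, lay above the single PVD2 array at −2.48. The mean PVD2 difference of −0.57 (SE 0.29, limma adjusted p = 1) had a 95% interval from −1.24 to 0.09, and 5 of 7 pairs were lower in PVD2.

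Xvex-1 did not share a direction across stages. In embryos at stage 9 it stood at −0.72 and −0.74 in controls and at −1.08 and −1.24 in PVD2, with both PVD2 arrays lower. At stage 10 the order was the other way, with −0.45 and −0.32 in controls and −0.29 and 0.04 in PVD2. Caps at stage 9 gave −1.51 and −2.37 in controls and −2.10 and −2.27 in PVD2, which overlap. Caps at stage 10 gave −1.68 and −1.97 in controls and −1.50 on the PVD2 array, above both. The mean PVD2 difference was −0.02 (SE 0.13, limma adjusted p = 1), and its 95% interval, from −0.32 to 0.28, corresponds to between 0.80 and 1.21 times the control level.

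msx2-A stayed close to background. It was well above background on 11 of 15 arrays, and on neither of the control embryo arrays of stage 9. Its ratios were −1.52 and −1.14 on those arrays and −1.92 and −0.78 in PVD2 embryos of that stage. At stage 10 control embryos measured −1.48 and −1.10 and PVD2 embryos −1.56 and −0.18, a wider spread than any difference between the groups. In caps the controls gave −0.54 and −1.36 at stage 9 and −1.25 and −1.16 at stage 10, and PVD2 gave −1.28, −1.29 and −1.02. The fitted mean difference was 0.06 (SE 0.26, limma adjusted p = 1, 95% interval −0.54 to 0.66).

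Across both tissues and stages 0 of the 4 members passed the FDR of 0.05, where 0.41% of all probes did, and 1 member, xom-A, had an unadjusted p under 0.05. The median of the 4 differences was −0.28, against 0.00 over all probes tested. None of the alternative settings called a member in this comparison.

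Among the related probes PV.1 and LOC397948 fell in PVD2. PV.1 measured −0.76 and −0.99 in control embryos at stage 9 and −2.02 and −1.36 in PVD2, and at stage 10 0.83 and 0.88 against −0.18 and −0.24. In caps PV.1 measured −1.60 and −1.86 in controls and −2.90 and −2.76 in PVD2 at stage 9, and 0.10 and −0.67 against −1.94 at stage 10. Control and PVD2 arrays of PV.1 did not overlap in any tissue or stage, but the share of all probes without overlap was not counted. Its fall of 2.23-fold (log2 difference −1.16, SE 0.14, limma adjusted p = 0.0139) was seen in 7 of 7 pairs, and 2.18% of all probes tested were lower in every pair. LOC397948 fell by 1.07 (SE 0.14, limma adjusted p = 0.0208), again in 7 of 7 pairs.

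LOC397948 stood at 0.45 and 0.43 in control embryos of stage 9, and PVD2 embryos at −0.50 and −0.91. In caps at stage 9 the controls gave −0.20 and 0.41 and PVD2 −1.13 and −1.58. The 2 further related probes were lower in 7 of 7 pairs without passing the test. The difference was −0.74 (SE 0.18, limma adjusted p = 0.287) for szl and −0.38 (SE 0.09, limma adjusted p = 0.287) for Xbr-1b. With the replicate number as a block, szl passed at −0.80 (limma adjusted p = 0.0199), and with the slide as a block at −0.83 (limma adjusted p = 0.00339). The calls of PV.1 and LOC397948 lay near the threshold, and centring each array on its median in place of loess ended both (limma adjusted p = 0.9 for each), as the Cy3 channel alone did for PV.1 (limma adjusted p = 0.0615). PV.1 was not called when control embryos of stage 9 replicate 1 (adjusted p = 0.0564), of stage 10 replicate 1 (0.0553) or replicate 2 (0.0603), or PVD2 caps of stage 9 replicate 1 (0.0535) were left out. LOC397948 was not called without control embryos of stage 9 replicate 1 (0.0755) or 2 (0.059), of stage 10 replicate 2 (0.0603), control caps of stage 10 replicate 1 (0.0706) or 2 (0.0518), or PVD2 caps of stage 9 replicate 2 (0.0546).

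**Figure D2:**
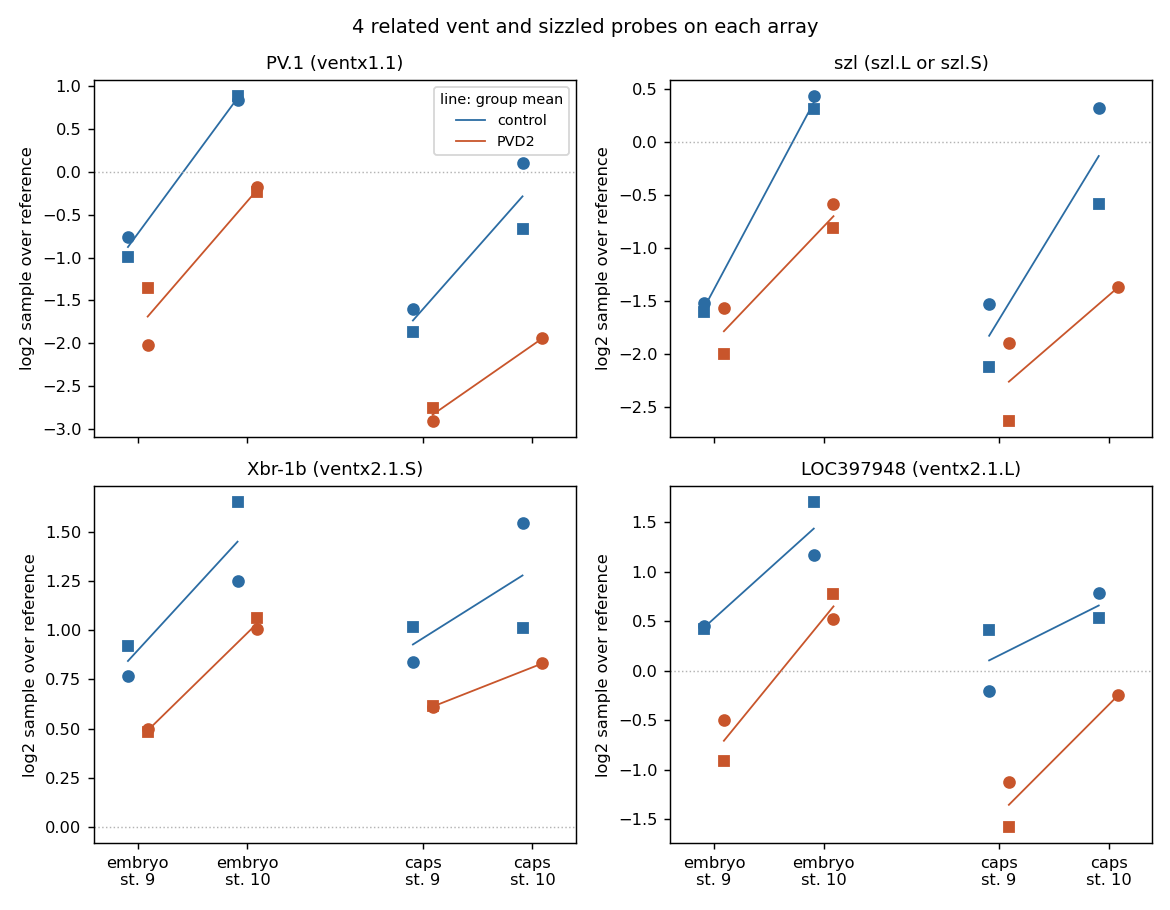
Log2 ratio of sample over reference (y axis) of the 4 related probes in whole embryos and caps at stages 9 and 10 (x axis), with colors, symbols and lines as for the members. In PV.1, LOC397948 and Xbr-1b the PVD2 arrays lie below the control arrays of the same tissue and stage throughout. The share of all probes that do so was not counted.

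An expressed sequence tag, BF611605, described in the array files as similar to the XVENT-1 protein, had no match in the annotation and was noticed because its pattern lay near those of the members. It measured −1.16 and −1.34 in control embryos of stage 9 and −1.77 and −1.76 in PVD2, and 0.70 and 0.80 against 0.12 and −0.13 at stage 10. It was fitted with all other probes, but as it was picked for its pattern on these arrays, its test results are not given.

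The 4 single comparisons of PVD2 with control hold 2 arrays against 2, or 2 against 1 in caps at stage 10. In whole embryos 0 of 4 members were called at stage 9 and 0 at stage 10, and the share of all probes called was 0% at either stage. In caps 0 of 4 were called at stage 9, where 0.0279% of all probes were, and 0 at stage 10, where 0% were. The only member with an unadjusted p under 0.05 in any of them was xom-A in embryos at stage 9. The fitted differences of xom-A were −0.76 (SE 0.33) and −0.51 (SE 0.33) in embryos at stages 9 and 10, and −0.65 (SE 0.33) and −0.23 (SE 0.40) in caps. For LOC398164 they were −0.25 and −0.44 (both SE 0.55) in embryos, −0.52 (SE 0.55) in caps at stage 9 and −1.09 (SE 0.67) in caps at stage 10. Those of Xvex-1 were −0.43 and 0.26 in embryos (both SE 0.25) and −0.25 (SE 0.25) and 0.33 (SE 0.30) in caps, below 0 at stage 9 and above 0 at stage 10 in either tissue.

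Whether the PVD2 effect differed between tissues or between stages was tested directly. In neither test was a member called, nor any other probe (0% of probes in each). At an unadjusted p under 0.05 there were 0 members in the tissue test and 1 in the stage test, and the limma adjusted p was 1 for all 4 members in both. For Xvex-1 the PVD2 effect at stage 10 minus that at stage 9 was 0.64 (SE 0.26).

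The authors' table of processed values held a second array of PVD2 caps at stage 10. In log2 units of that table, whose computation is not stated, xom-A measured 13.89 and 12.99 on the PVD2 arrays and 14.30 and 13.92 on the control arrays of that group. LOC398164 measured 8.77 and 7.60 in PVD2 and 10.77 and 9.59 in controls. For both genes the PVD2 caps lay below the controls, for xom-A only just, at 13.89 against 13.92. The share of all probes that separated in this way was not counted. Xvex-1 overlapped, at 9.86 and 9.5 in PVD2 and 9.72 and 9.39 in controls. The PV.1 values were 9.44 and 8.59 in PVD2 against 11.72 and 10.81 in controls, and those of LOC397948 were 14.44 and 13.47 against 15.59 and 15.20.

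**Figure D3:**
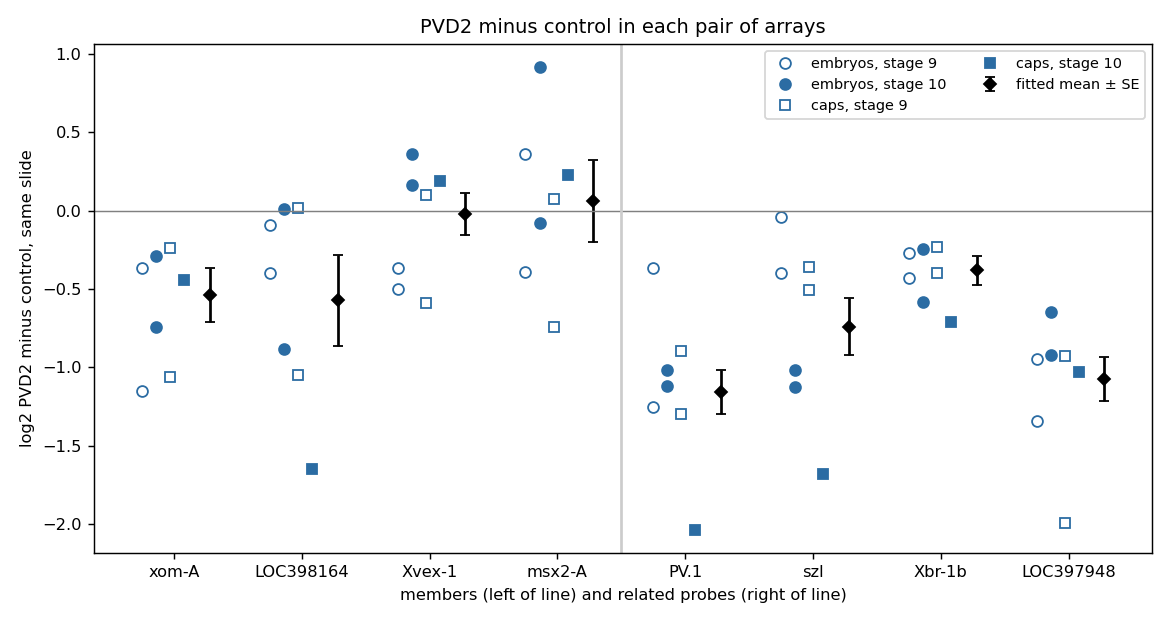
Log2 difference between the PVD2 and the control array on the same slide (y axis) for the 4 members and the 4 related probes (x axis), with circles for embryos, squares for caps, open symbols for stage 9, filled symbols for stage 10, and a diamond for the fitted mean with its SE. All 7 pairs lie below 0 for xom-A and for each related probe, whereas Xvex-1 has 4 pairs above 0 and msx2-A has 4.

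xom-A rose between late blastula and early gastrula under either morpholino. In controls it rose 3.45-fold, a log2 difference of 1.79 averaged over embryos and caps (SE 0.23, limma adjusted p = 0.00541). It was higher at stage 10 in 4 of 4 same-slide pairs, by 1.23 to 2.30, as were 13% of all probes. Control embryos alone gave a rise of 1.96 (SE 0.33, limma adjusted p = 0.0362) and control caps a difference of 1.62 (SE 0.33, limma adjusted p = 0.0907). Whether the rise differed between the tissues was not tested. xom-A was 1 of 4 members called in the controls, where 2.55% of all probes were called, and the median difference of the 4 was 0.90 against −0.01 over all probes. In embryos alone it was again the 1 member called, where 1.05% of probes were, and in caps 0 were, where 0.676% of probes were and 2 members had an unadjusted p under 0.05. xom-A kept its call in 15 of 15 fits that left out an array and lost it with median centring of the arrays (2.07, limma adjusted p = 0.247).

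LOC398164 was 2.97-fold higher at stage 10 in controls, by 1.57 (SE 0.39, limma adjusted p = 0.0924), and higher in 4 of 4 pairs by 1.30 to 2.17. It did not pass the test as fitted. It passed with the slide as a fixed block at the same difference (limma adjusted p = 0.0099). The size depended on the processing, with 1.54 to 3.33 over the alternative settings. In the authors' processed values the difference was 3.33 (limma adjusted p = 6e-04), and with the Feature Extraction log ratio 3.21 (limma adjusted p = 0.00239). Without background correction the difference was 1.91 (limma adjusted p = 0.0046).

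Xvex-1 and msx2-A did not pass the stage test in controls. The difference of Xvex-1 was 0.23 (SE 0.18, limma adjusted p = 0.817, 95% interval −0.17 to 0.63). That of msx2-A was −0.11 (SE 0.35, limma adjusted p = 0.958, 95% interval −0.91 to 0.69). In control embryos msx2-A was not well above background at stage 9. The interval of Xvex-1 reaches up to a rise of 1.55-fold. That of msx2-A reaches 1.61-fold but holds for this processing only. Over the alternative settings its difference ranged from −0.20 to 1.23. The Feature Extraction log ratio gave 1.23 (limma adjusted p = 0.0182) and the authors' values 0.74, both above the interval.

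Of the related probes, PV.1 rose 3.01-fold in controls (1.59, SE 0.19, limma adjusted p = 0.00377) and szl 3.52-fold (1.82, SE 0.24, limma adjusted p = 0.00625). szl went from −1.52 and −1.60 to 0.43 and 0.31 in control embryos and from −1.53 and −2.12 to 0.32 and −0.58 in control caps. LOC397948 differed by 0.78 (SE 0.19, limma adjusted p = 0.0843) and Xbr-1b by 0.48 (SE 0.13, limma adjusted p = 0.115). With the slide as a random block both passed (limma adjusted p = 0.0473 and 0.0472), and LOC397948 passed on Cy3 alone (0.0361), with the Feature Extraction log ratio (0.0499), in the authors' 15 arrays (0.0481) and with a robust, trended variance (0.0491). Xbr-1b passed without control caps of stage 10 replicate 2 (0.0362). Median centring ended the calls of PV.1 (limma adjusted p = 0.136) and szl (0.0658).

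In PVD2 the rise of xom-A was 4.36-fold, a log2 difference of 2.12 (SE 0.26, limma adjusted p = 0.0103), and 4.60-fold in PVD2 embryos alone (limma adjusted p = 0.0373). It was the 1 of 4 members called over both tissues, where 1.34% of all probes were called, and the 1 called in PVD2 embryos, where 0.461% were. In PVD2 caps 0 were called, as against 0.0373% of all probes, with 1 member at an unadjusted p under 0.05. Xvex-1 was 0.86 higher at stage 10 (SE 0.20, limma adjusted p = 0.0924). It passed with the slide as a fixed block (0.75, limma adjusted p = 0.0433) and when either replicate of control caps at stage 9 was left out (limma adjusted p = 0.0197 for both), though those arrays enter only the estimate of the spread. Median centring ended the call of xom-A here as well (2.29, limma adjusted p = 0.266). LOC398164 differed by 1.18 (SE 0.43, limma adjusted p = 0.396) and msx2-A by 0.37 (SE 0.39, limma adjusted p = 0.983). All 4 members were higher at stage 10 in 3 of 3 PVD2 pairs, as were 27.6% of all probes.

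Among the related probes in PVD2, PV.1 rose by 1.18 (SE 0.21, limma adjusted p = 0.0364) and LOC397948 by 1.23 (SE 0.21, limma adjusted p = 0.031). Median centring ended both calls (limma adjusted p = 0.917 and 1), and they did not hold when most single arrays were left out: PV.1 kept it in 3 of 14 such fits and LOC397948 in 4 of 14. PV.1 was also not called on Cy3 alone or with a robust, trended variance, nor LOC397948 in the authors' values of 16 arrays. szl differed by 0.99 (SE 0.27, limma adjusted p = 0.176) and Xbr-1b by 0.38 (SE 0.14, limma adjusted p = 0.395). With the replicate number as a block szl passed, at 0.88 (limma adjusted p = 0.0338). It also passed with the slide as a random block, at 0.87, and as a fixed block, at 0.80. The stage course of the control and PVD2 groups did not differ at the FDR for any of these probes, as the test of the stage difference gave an adjusted p of 1 for each.

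**Figure D4:**
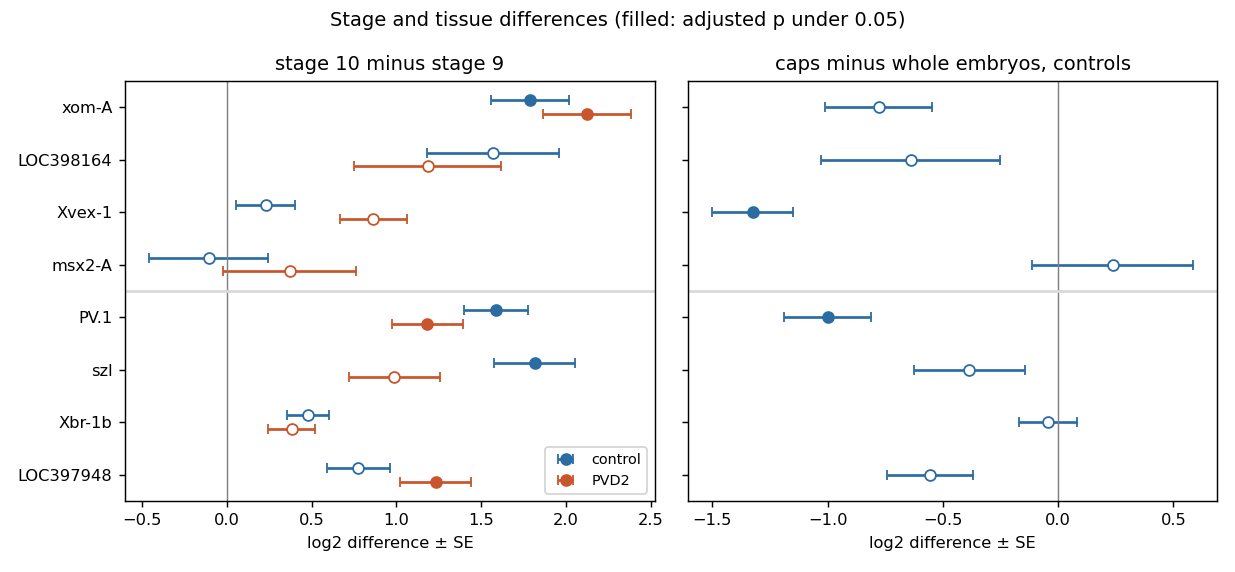
Log2 differences with their SE (x axes) for the members (above the line) and related probes (below it), on the left stage 10 minus stage 9 in control and PVD2, on the right caps minus whole embryos in controls. Filled symbols have a limma adjusted p under 0.05; xom-A is filled in both stage comparisons and Xvex-1 and PV.1 are filled in the tissue comparison.

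Xvex-1 was the only member to pass the test of caps against whole embryos. In controls its level in caps was 2.51-fold lower (log2 difference −1.33, SE 0.18, limma adjusted p = 0.00388). The 4 control cap arrays lay between −2.37 and −1.51 and the 4 control embryo arrays between −0.74 and −0.32, with no overlap. How many of all probes separated the tissues in this way was not counted. At stage 10 alone the difference was −1.44 (SE 0.25, limma adjusted p = 0.0237) and at stage 9 it was −1.21 (SE 0.25, limma adjusted p = 0.0711). Xvex-1 was 1 of 4 members called over both stages, where 7.85% of all probes were called, and the median difference of the 4 was −0.71 against 0.00 over all probes. At stage 9 0 members were called, where 1.02% of probes were and 1 member had an unadjusted p under 0.05, and at stage 10 1 was, where 2.69% were. The call held in 15 of 15 fits without one array and was lost with median centring (−1.29, limma adjusted p = 0.0784).

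The other members did not pass this test. xom-A was 0.78 lower in caps (SE 0.23, limma adjusted p = 0.0834), a call gained without control embryos of stage 10 replicate 1 (−0.99, limma adjusted p = 0.0441) and with the Cy3 channel alone (−1.01, limma adjusted p = 0.0202). LOC398164 differed by −0.64 (SE 0.39, limma adjusted p = 0.38) and msx2-A by 0.24 (SE 0.35, limma adjusted p = 0.75). With the Feature Extraction log ratio msx2-A passed, at 0.97 (limma adjusted p = 0.0181), though it was not well above background in control embryos of stage 9. The LOC398164 difference had the opposite sign in the authors' processed values, at 0.0939. The other sizzled probe, szl, differed by −0.38 (limma adjusted p = 0.397), and by −0.49 to −0.34 over the alternative settings. Of the related probes PV.1 was 2.00-fold lower in caps (log2 SE 0.19, limma adjusted p = 0.016). It was not called without control embryos of stage 10 replicate 2 (limma adjusted p = 0.0596) or control caps of stage 9 replicate 2 (limma adjusted p = 0.061), nor with the slide as a random block (0.061), with median centring (0.256) or on Cy3 alone (0.0732). LOC397948 differed by −0.56 (limma adjusted p = 0.121). Xbr-1b, at −0.04 (SE 0.13, limma adjusted p = 0.881), had a 95% interval from −0.33 to 0.24.

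The tissue labels were checked with marker genes. All 18 mesendoderm probes, among them Xbra, Mix.1 and the Sox17 genes, were lower in control caps, 15 passed the test, and their median difference was −3.11. Summed over the list, the fold of the reference was 22.6 to 26.5 in control embryos at stage 9 and 72.3 to 80.6 at stage 10, against 4.82 to 6.60 and 5.26 to 6.05 in control caps. Of the 7 ectoderm probes 4 were higher and 3 lower in caps, and 1 was called higher. On the cap arrays 2 to 3 of the 18 were not well above background. The mesendoderm markers thus moved with the tissue difference of Xvex-1, and their part in it was not tested. In the PVD2 comparison 17 of the 18 mesendoderm probes were lower and 0 were called, with 6 at an unadjusted p under 0.05. Their sum in PVD2 embryos was 15.1 to 18.9 at stage 9 and 62.3 to 67.5 at stage 10, below the controls of the same stage, and 4.4 to 4.55 and 5.23 in PVD2 caps. The part of this change in the lower PV.1 and LOC397948 levels was not tested. Of the 7 ectoderm probes 5 were lower and 2 higher in PVD2, with 2 called lower, Tcfap2a and sox3, and 1 called higher, dlx3-A-prov.

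Ranked by group mean, the levels of xom-A placed all stage 10 groups above all stage 9 groups. The highest was control embryos of stage 10 at 1.00 ± 0.59 (SD, n = 2), then PVD2 embryos of stage 10 at 0.49 ± 0.27 (SD, n = 2), whose arrays overlapped with it. Control caps of stage 10 followed at 0.06 ± 0.30 (SD, n = 2), and PVD2 caps of stage 10 at −0.17 on 1 array, next to the lower control. Control embryos of stage 9 stood at −0.95 ± 0.10 (SD, n = 2), separate from their neighbors on either side. Control caps of stage 9 at −1.56 ± 0.25 (SD, n = 2), PVD2 embryos of stage 9 at −1.71 ± 0.45 (SD, n = 2) and PVD2 caps of stage 9 at −2.21 ± 0.33 (SD, n = 2) came last, each overlapping with the next.

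For LOC398164 each group overlapped with the next in order, so that the ranks are not settled. Control embryos of stage 10 were highest at −0.58 ± 0.06 (SD, n = 2), then PVD2 embryos of stage 10 at −1.02 ± 0.57 (SD, n = 2) and control caps of stage 10 at −1.39 ± 0.79 (SD, n = 2). Control embryos of stage 9 at −2.32 ± 0.55 (SD, n = 2), PVD2 caps of stage 10 at −2.48 on 1 array and PVD2 embryos of stage 9 at −2.56 ± 0.77 (SD, n = 2) came next. Control caps of stage 9 at −2.79 ± 0.84 (SD, n = 2) and PVD2 caps of stage 9 at −3.30 ± 0.09 (SD, n = 2) closed the order.

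As a description of pattern, the Pearson correlation with each member over the 15 arrays was ranked among the probes well above background on all of them. Nearest to xom-A were HAS-rs (r = 0.942), LOC398277, which is sp5l.S (r = 0.939), LOC414675, which is hunk.S (r = 0.937), MGC68902 (r = 0.927) and the tag BF611605 (r = 0.918). Nearest to LOC398164 were BF611605 (r = 0.936), BX843538 (r = 0.931), BP695997 (r = 0.921), MGC52738 (r = 0.920) and wnt-2-prov (r = 0.919). These arrays share stages, tissues and slides, so the coefficients describe likeness across the 8 groups only. Between members r was 0.846 for xom-A and LOC398164, 0.650 for xom-A and Xvex-1 and 0.0934 for xom-A and msx2-A. Xvex-1 was nearest to LOC398045, the probe of chordin (chrd.1.S), at r = 0.973, an antagonist that the organizer secretes. Next came AJ009307 (r = 0.970), flrt3.L (r = 0.964), ccni.S (r = 0.957) and Xenf (r = 0.951). Both Xvex-1 and chordin were lower in control caps than in control embryos. Between stages 9 and 10 in control embryos chordin went from −0.56 to 1.12, and Xvex-1 from −0.73 to −0.39.

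The wider BMP pathway was read from a list of 48 genes, of which 35 had a probe, 42 probes in all. Over both tissues and stages 1 probe was higher in PVD2 and 2 were lower at the FDR, where 0.41% of all probes were called, and the median difference was −0.01. Of the 6 probes listed as ligands only gdf3-A-prov (gdf3.S, a TGF-β family member) was called, with a fall of 1.22 (SE 0.19, limma adjusted p = 0.042). Its place in the list rests on the gene name, and whether it acts through BMP receptors was not tested. It lay below 0 in 5 of 7 pairs and kept its call in 2 of 14 fits without one array. In caps gdf3-A-prov stood at −3.50 in controls and −5.76 in PVD2 at stage 9, and at −3.02 and −5.10 at stage 10. Embryos stood at 1.90 in controls and 1.16 in PVD2 at stage 9, and at 2.72 and 2.91, the other way, at stage 10. Of the 6 ligand probes 4 were lower and 2 higher in PVD2. LOC398053 (admp.S) was not called but was lower in 7 of 7 pairs, as were 2.18% of all probes tested. Its control and PVD2 means in embryos were 0.42 and −1.25 at stage 9, and 1.71 and 0.77 at stage 10. In caps they were −1.85 (SD 1.65) and −4.45 at stage 9, and −1.34 (SD 1.14) and −3.34 (1 array) at stage 10. Among other genes that answer BMP in ectoderm, the transcription factor Tcfap2a fell by 0.71 (SE 0.07, limma adjusted p = 0.00565), with 7 of 7 pairs below 0, while dlx3-A-prov rose by 0.91 (SE 0.13, limma adjusted p = 0.0306), with 7 of 7 pairs above 0, a call that passed in 2 of 14 fits without one array. Median centring ended the calls of Tcfap2a and gdf3-A-prov (limma adjusted p = 0.9 for each) and of dlx3-A-prov (0.29), and dlx3-A-prov was also not called without background correction (0.148), on Cy3 alone (0.127), with the Feature Extraction log ratio (0.148), in the authors' values of 16 (0.0719) or 15 arrays (0.134) or with a robust, trended variance (0.156). Dlx3 and AP-2 (Tcfap2a) are both regulators of non-neural ectoderm. Of the 9 receptor probes, 2 Smad1 transducer probes, 5 intracellular inhibitor probes and 10 extracellular regulator probes, 0 passed in either direction, with 2 of these probes at an unadjusted p under 0.05. No probe was matched by name to bmp4, the ligand most often used to induce vent genes, but most probes of the array had no match in the annotation.

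Between stages in controls 4 pathway probes were called higher and 2 lower, where 2.55% of all probes were called. cer (Cerberus, a secreted antagonist of BMP, Nodal and Wnt ligands) differed by 1.85 over both tissues (SE 0.13, limma adjusted p = 0.000629), from −2.35 to 1.73 in control embryos but from −3.48 to −3.86 in control caps, with 2 pairs higher and 2 lower. Dlx5 and dlx3-A-prov rose by 1.59 each (limma adjusted p = 0.00965 and 0.00278), in 4 of 4 pairs. bambi-A, a pseudoreceptor induced by BMP itself, rose by 0.53 (SE 0.11, limma adjusted p = 0.0435), a call kept in 3 of 15 fits without one array. Both bmp2 probes fell, Bmp2 by 0.78 (limma adjusted p = 0.0388, kept in 6 of 15 such fits) and LOC397873 by 0.68 (limma adjusted p = 0.00808). In PVD2 the same comparison called cer and dlx3-A-prov higher and LOC397873 lower, the last of these in 2 of 14 such fits. Median centring ended all of these stage calls.

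In control caps against embryos 4 pathway probes were called higher and 5 lower, where 7.85% of all probes were called. The 6 with the smallest p were cer at −3.36, gdf3-A-prov at −5.57, LOC398045 (chordin) at −4.49, LOC397712 (the type I receptor bmpr1a.S) at 0.89, nog-A (Noggin, lower) and dlx3-A-prov at 1.22, all with a limma adjusted p of 0.00532 or less. nog-A was not well above background on any control array of caps, nor on those of embryos at stage 9, so its difference is not given. On the Cy3 channel alone LOC397712 had the opposite sign (−0.51, limma adjusted p = 0.00079) and dlx3-A-prov was not called (limma adjusted p = 0.275). Median centring ended the calls of LOC397712, nog-A and dlx3-A-prov.

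**Figure D5:**
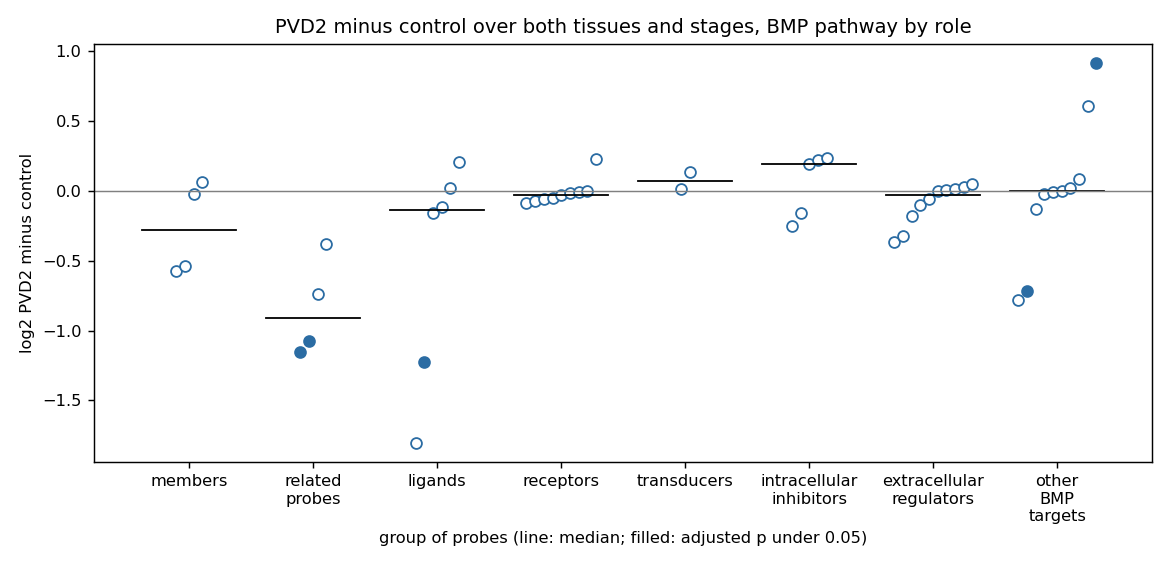
Log2 PVD2 minus control difference over both tissues and stages (y axis) of each probe, grouped as members, related probes and the roles of the BMP pathway list (x axis), with a line at each median and filled symbols for a limma adjusted p under 0.05. The related probes have the lowest median, and most receptor and transducer probes lie close to 0.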

How the data were processed

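RNA of control and PVD2 whole embryos and caps was measured on 2-colour Agilent arrays. The intensity values (mean signal and median background per spot) were deposited by the authors without normalization, as Feature Extraction 9.5.1.1 wrote them. The deposited log10 ratio of Feature Extraction is Cy5 over Cy3, and its sign was turned here. The authors' processed values, deposited as log10, were converted to log2; their differences between arrays followed the sample over reference ratio (r 0.962 to 0.989 across probes) more closely than Cy3 alone (0.343 to 0.750), and their centring is unknown.

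Intensities were corrected by normexp (offset 50) and normalized by loess within arrays. Outlier spots and the 1417 control spots were dropped, and both spots of a probe averaged. limma 3.58.1 (R 4.3.3, statmod 1.5.0) fitted 8 group means to 21495 probes, with Benjamini-Hochberg adjustment over all probes of a comparison. The fit took the arrays as independent. With the slide as a random block, the correlation estimated between arrays of a slide was 0.346, and the main p-values take no account of it. Fits with a slide or replicate block were run only as alternatives. How far the main p-values hold for arrays that share a slide was not tested otherwise. Arrays give no read depth; their number limits the precision.

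Samples were grouped by their labels. Deviations of arrays with the same replicate number correlated in 6 of 6 pairs of embryo groups (r 0.467 to 0.878) and 3 of 3 pairs of cap groups (0.485 to 0.718), which shared slides, and in 10 of 12 pairs of groups between tissues r exceeded 0.1. Between tissues r ranged from −0.369 to 0.662. The numbers thus pair arrays within a tissue, and whether they also pair them between tissues is not settled.

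Members were named by the rule given, all 4 in full. Of the pathway list, called probes were named, at most 6 per comparison, and 5 nearest patterns for each of xom-A and LOC398164. The correlations of Xvex-1 and the tag BF611605 were chosen after their values were seen. Members and lists were chosen with earlier results of these data known. Gene names came from the files and from RefSeq (Xenopus_laevis_v10.1), in which 1418 probes matched by gene ID, 1289 by symbol and 980 by synonym, 69 matched several genes and 17739 none; the build of the files is not given in the sources used here.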

Additional observations from a re-analysis of the deposited data

Results flagged for a closer look

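The same-slide PVD2 minus control differences of Xvex-1 in whole embryos had opposite signs at the 2 stages. Both pairs lay below 0 at stage 9, with a mean of −0.43, and both above 0 at stage 10, with a mean of 0.26. This sign change was picked by looking for one in every member over several comparisons of groups. The share of all probes with such a change was not counted. Neither mean passed the test, and the 95% intervals were −0.998 to 0.130 and −0.302 to 0.826. This difference within embryos was not tested; over both tissues the test of the stage difference gave 0.64 (SE 0.26, limma adjusted p = 1).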

How the results depend on the processing

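Alternatives changed 1 choice each, except that the Feature Extraction log ratio and the authors' values replaced the whole processing; the authors' processed values of the 15 arrays alone and the slide as a fixed block (not used for the tissue comparison) were added after seeing the data. Leaving out PVD2 caps of stage 10 replicate 1 empties that group, so comparisons that use it have 14 such fits. Under no setting was a member called in the PVD2 comparisons or in the tests of their differences. In controls 1 member was called between stages, against 0 with median centring, 3 with the Feature Extraction log ratio, and 2 without background correction, on Cy3 alone, with the authors' values of 16 or 15 arrays, or with the slide as a random or fixed block. In PVD2 1 member was called, against 0 with median centring, 3 with the Feature Extraction log ratio and the authors' values of 16 or 15 arrays, and 2 without background correction or with either slide block. In caps against embryos 1 was called, against 0 with median centring and 2 with the Feature Extraction log ratio or Cy3 alone. Leaving out 1 array gave 1 to 1 in controls, 1 to 2 in PVD2 and 1 to 2 in the tissue comparison. The causes were not tested.

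With the replicate number as a block, within tissues a pairing by slide, the member counts were 0 for PVD2, 1 in each stage comparison and 1 for tissue, and the calls it changed among the probes whose tests are given are those given for szl. Over all probes 88 were called for PVD2 (1 to 392 over the alternatives, 155 with the block), 548 between stages in controls (17 to 1389, 1038), 288 in PVD2 (4 to 1045, 564) and 1684 between tissues (155 to 6299, 2732). In the single PVD2 comparisons 6 were called (0 to 716) and in the tests of differences 0 (0 to 7). Leaving out 1 array gave 36 to 75, 253 to 651, 108 to 325 and 708 to 1936 in the first 4 of these.

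These signs turned. The PVD2 difference of msx2-A was −0.14 without background correction, −0.0589 with the Feature Extraction log ratio, −0.0605 on Cy3 alone, −0.30 and −0.31 in the authors' 16 and 15 arrays, and −0.11 to 0.23 without 1 array. Its stage difference in controls was 0.16, 1.23 (limma adjusted p = 0.0182) and 0.17 in the first 3 of these, 0.74 in the authors' values, and −0.31 to 0.10 without 1 array. Its tissue difference was −0.0269 on Cy3 alone. Xvex-1 in PVD2 gave 0.20 with median centring and −0.13 to 0.0861 without 1 array. Between tissues LOC398164 gave 0.0939 in the authors' values, Xbr-1b 0.0032 with offset 16 and −0.18 to 0.0885 without 1 array, and LOC397712 −0.51 on Cy3 alone.

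The number of arrays and the dim signal of msx2-A and LOC398164 limit the precision.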
